A study of Homo sapiens with 14 samples.

Results

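The glycolysis and hypoxia genes are 35 human genes, taken by name, in a list chosen with earlier results of these data known. Of these, 21 encode glycolytic enzymes or carriers of glucose and lactate, and the other 14 are induced by low oxygen or control that response. A named probe was found for 33 of the 35 among the 20046 named genes of the arrays; SLC16A3, a lactate exporter, and CA9, a carbonic anhydrase of hypoxic tumours, had none. Levels are normalized log2 intensities of the brightest probe of each gene, so 1 unit is a 2-fold difference.

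Glycolysis converts glucose to pyruvate in the cytosol, and lactate dehydrogenase converts pyruvate to lactate. Hypoxia-inducible factors (HIFs) pair an oxygen-labile alpha subunit, HIF-1α from HIF1A or HIF-2α from EPAS1, with the stable subunit ARNT; prolyl hydroxylases of the EGLN family mark the alpha subunits for destruction when oxygen is present. HIF-1 activates most glycolytic enzymes as well as genes of angiogenesis, mitophagy and collagen synthesis. The alpha subunits are controlled mainly at the protein level, which arrays of RNA do not measure.

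The study concerned the forkhead factor FoxA1 in prostate cancer. LNCaP cells, which respond to androgen, carried an shRNA against FoxA1 (shFoxA1, 4 arrays) or a control shRNA (shCtrl, 4 arrays). Each of these groups held 2 numbered arrays whose titles name no medium, 1 array labelled R1881, a synthetic androgen, and 1 labelled hormone-deprived; the growth protocol, worded alike for all of them, gives 3 days in stripped serum and then 1 nM R1881 for 24 hours. The sample descriptions call the R1881 arrays replicate 3 of the numbered series, so the numbered arrays may have had R1881 too; they were kept as a medium level of their own. Single arrays covered LNCaP with FoxA1 siRNA (siFoxA1) or control siRNA (siCtrl), 22RV1 with shFoxA1 or shCtrl, and PC-3M stably labelled FoxA1 overexpression or control. No label says whether the replicates came from separate cultures, so p-values measure only the spread between these arrays; nor do the labels say whether a stable line was 1 clone or which hairpins were used.

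The FOXA1 probe was lower in every knockdown pair. On the shFoxA1 arrays FOXA1 stood at 10.76 and 10.36 (numbered 1 and 2), 10.92 (R1881) and 11.37 (hormone-deprived), against 11.87, 11.64, 11.91 and 12.11 on the shCtrl arrays, a difference of -1.02 (SE 0.15, limma adjusted p = 0.0127). With siRNA the difference was -0.81, and with shRNA in 22RV1 it was -1.11. In PC-3M, FOXA1 was at 8.89 on the array labelled FoxA1 and at 10.40 on its control, opposite to the label, so no direction with respect to FoxA1 is drawn from that pair. Mean probe intensity ran from 157 to 285 over the LNCaP shRNA and PC-3M arrays, whose values were background-subtracted. On the siRNA and 22RV1 arrays, whose values were raw, it ran from 235 to 447. Of 8 luminal prostate markers, 7 or 8 were detected on each LNCaP and 22RV1 array and 4 or 5 in PC-3M, where KLK2, KLK3 and TMPRSS2 were not detected. Of 6 fibroblast markers, 0 to 3 were detected on LNCaP and 22RV1 arrays and 2 to 4 on PC-3M arrays.

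FoxA1 knockdown in LNCaP went with higher RNA of the HIF alpha subunit HIF1A and of the glycolytic enzyme ALDOA, and with lower RNA of LDHB. The test was a limma fit with knockdown and the 3 medium labels as terms and a Benjamini-Hochberg adjusted p below 0.05 over 11892 genes. EPAS1 was also below that threshold, but it entered the test through the knockdown arrays alone and is given as a description. With EPAS1, the 3 higher members compare with 4.15% of all tested genes called higher, and the 1 lower member with 3.74% called lower. The median difference was 0.52 over 13 measured hypoxia genes and 0.26 over 20 measured glycolytic genes, against -0.0070 over all tested genes.

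HIF1A encodes the oxygen-regulated subunit of HIF-1. Its level was 9.70 and 9.08 on the numbered shFoxA1 arrays, 9.76 in R1881 and 9.08 in hormone-deprived medium, against 7.52, 7.91, 9.04 and 8.34 on the matching shCtrl arrays. All 4 shFoxA1 arrays were above all 4 shCtrl arrays; the shCtrl R1881 array was the nearest to them. The fitted difference was 1.20 (SE 0.23, limma adjusted p = 0.0248), a 2.29-fold higher level in knockdown. The remaining detected HIF1A probes gave 1.06 and 1.34.

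EPAS1 encodes HIF-2α. It stood at 8.57 and 6.76 on the numbered shFoxA1 arrays, 6.64 in R1881 and 4.99 in hormone-deprived medium, against 4.47, 4.87, 4.80 and 4.51 on shCtrl arrays. EPAS1 was detected on 3 of 4 shFoxA1 arrays, all but the hormone-deprived one, and on 0 of 4 shCtrl arrays, so it met the filter on detection through the knockdown arrays alone, and its test is no support for a difference. Against the detection limit, its mean was at least 2.91-fold higher in knockdown cells, and at least 5.11-fold higher over the numbered arrays. The fit gave a limma adjusted p of 0.0414 on values that were below detection on 5 of the 8 arrays.

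ALDOA, aldolase A, splits fructose 1,6-bisphosphate. It had 13.29 and 12.70 on the numbered shFoxA1 arrays, 12.11 in R1881 and 11.74 in hormone-deprived medium, against 11.90, 12.27, 10.83 and 11.37 on shCtrl arrays. The groups overlapped, and in each group the numbered arrays held the 2 highest levels, but knockdown was higher within each of the 4 pairs, by 0.37 to 1.39. The fitted difference was 0.86 (SE 0.19, limma adjusted p = 0.0369), or 1.82-fold, and the other detected ALDOA probe gave 0.73.

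LDHB encodes the heart-type subunit of lactate dehydrogenase, which favours turning lactate back into pyruvate. It was at 10.63, 10.99, 11.11 and 10.80 on shFoxA1 arrays in the same order, against 11.65, 11.69, 11.68 and 11.27 on shCtrl arrays. All 4 shFoxA1 arrays were below all shCtrl arrays, and the difference was -0.69 (SE 0.14, limma adjusted p = 0.0250), a level 1.61-fold lower in knockdown. LDHA, the muscle-type subunit that is a textbook HIF-1 target, had a difference of -0.0096 (SE 0.15, limma adjusted p = 0.977). An average over a culture cannot tell fewer expressing cells from less RNA per cell.

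**Figure D1:**
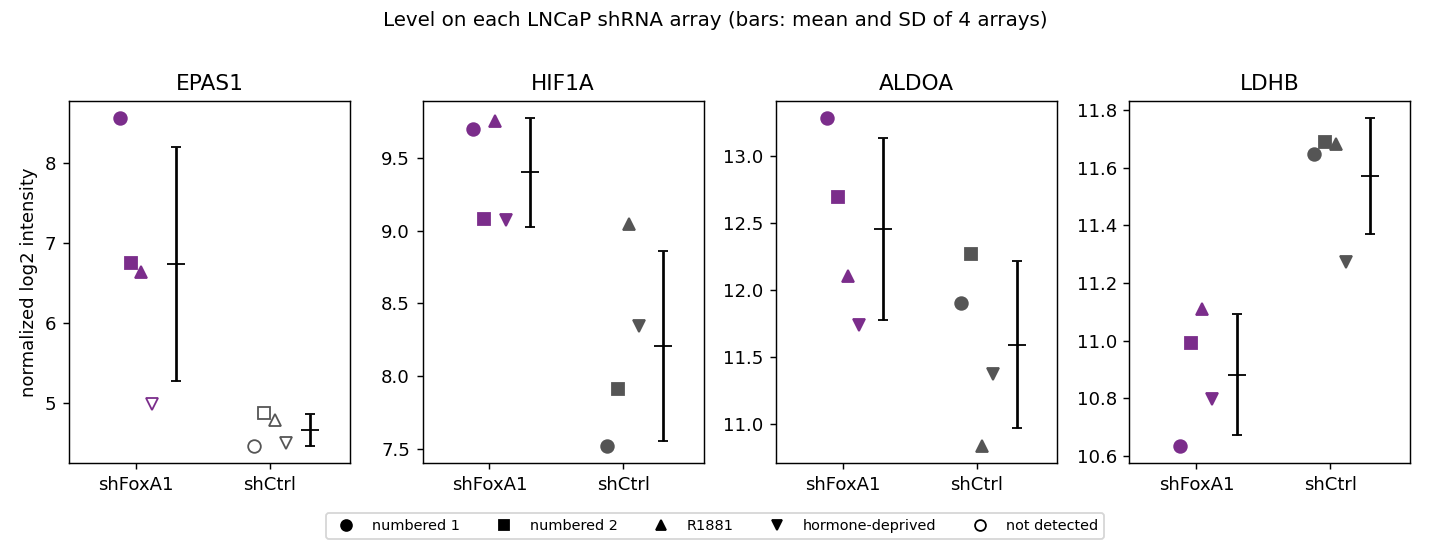
Normalized log2 intensity (vertical axes, a scale of its own for each gene) of EPAS1, HIF1A, ALDOA and LDHB on each of the 8 LNCaP shRNA arrays, shFoxA1 left of shCtrl, with a symbol per medium label, open where the probe was not detected, and bars for mean and SD of 4 arrays. HIF1A sits higher in all shFoxA1 arrays and EPAS1 in the 3 that detected it, LDHB sits lower in all of them, and the ALDOA groups overlap between 11.74 and 12.27.

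Each of these 4 calls depended on which arrays entered. Without the shFoxA1 array numbered 1, ALDOA had 0.74 (limma adjusted p = 0.0579) and the other 3 stayed past the threshold. Without the shFoxA1 array numbered 2 none of the 4 passed (limma adjusted p = 0.0649 to 0.0756), nor without the shCtrl array numbered 1 (0.0586 to 0.106) or the one numbered 2 (0.0755 to 0.112). None passed without the pair numbered 2 (0.141 to 0.171) or without the R1881 pair (0.0737 to 0.129), whereas all 4 passed without the hormone-deprived pair and all but ALDOA (0.0836) without the pair numbered 1. With all arrays, none passed without background correction, in the deposited matrix, without the filter on detection or without the medium term (0.0541 to 0.276). With the R1881 arrays joined to the numbered ones as 1 medium level, LDHB alone passed (0.0467) and the other 3 missed (up to 0.197). No direction among the 4 changed in any of these fits. For EPAS1, which entered through the knockdown arrays alone, neither the kept direction nor a pass is support for a difference.

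The promoters of these 4 genes are shown because their RNA met the threshold of that fit. They are the 250 bases before the most upstream RefSeq start on GRCh38.p14, read in the gene's direction, at chr2:46297157-46297406 (EPAS1, plus strand), chr14:61695263-61695512 (HIF1A, plus), chr16:30064029-30064278 (ALDOA, plus) and chr12:21657843-21658092 (LDHB, minus). Capitals mark the core of the HIF-binding motif, ACGTG or GCGTG, on either strand.
EPAS1: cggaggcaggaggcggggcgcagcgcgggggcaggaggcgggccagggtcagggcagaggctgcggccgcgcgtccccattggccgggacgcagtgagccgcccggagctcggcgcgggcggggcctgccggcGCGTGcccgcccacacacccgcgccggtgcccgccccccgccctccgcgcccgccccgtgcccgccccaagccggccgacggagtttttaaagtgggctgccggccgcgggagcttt
HIF1A: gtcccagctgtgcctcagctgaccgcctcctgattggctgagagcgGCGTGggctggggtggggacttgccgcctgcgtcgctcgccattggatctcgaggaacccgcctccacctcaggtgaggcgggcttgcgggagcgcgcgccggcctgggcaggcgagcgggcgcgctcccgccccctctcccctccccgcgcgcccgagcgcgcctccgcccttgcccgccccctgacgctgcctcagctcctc
ALDOA: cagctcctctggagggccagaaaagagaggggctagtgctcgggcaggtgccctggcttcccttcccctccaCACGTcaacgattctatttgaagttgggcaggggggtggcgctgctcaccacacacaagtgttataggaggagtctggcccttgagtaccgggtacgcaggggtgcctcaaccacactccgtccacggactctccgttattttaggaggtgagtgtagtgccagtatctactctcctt
LDHB: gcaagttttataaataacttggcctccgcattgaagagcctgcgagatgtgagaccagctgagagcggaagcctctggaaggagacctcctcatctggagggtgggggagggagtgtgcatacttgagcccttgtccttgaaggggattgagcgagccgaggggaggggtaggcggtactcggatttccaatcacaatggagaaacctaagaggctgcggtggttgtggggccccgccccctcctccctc
EPAS1 and HIF1A each held 1 GCGTG here, ALDOA held 1 ACGTG on the opposite strand, and LDHB held neither. Over all starts of a gene, 24 of the 30 measured members with an entry held ACGTG or GCGTG on either strand. Of 9515 tested genes with an entry, 63.8% did. The share per single window, 43.2% of all 35116 windows of this length, is not a like measure, since a gene can have several windows. ACGTG alone was in 16 of the 30, or 53.3%, against 28.7% of tested genes. CACGTG reads as ACGTG on both strands. The forkhead motifs TGTTTAC and TGTTTGC, on either strand, were in 0 of the 30 members and in 6.18% of tested genes. A match describes letters, not a binding site, and its absence concerns these 250 bases alone.

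Most of the glycolytic chain did not pass the test. Of the 20 measured glycolytic genes, 14 had a positive difference and 6 a negative one, against 49% of tested genes positive. Of the 20, ALDOA and LDHB passed the test. The nearest to it were SLC2A3, the high-affinity glucose carrier GLUT3, at 0.64 (SE 0.18, limma adjusted p = 0.0635), and PFKL, the liver-type phosphofructokinase, at 0.56 (SE 0.16, limma adjusted p = 0.0697). PFKFB4, which makes and breaks down the phosphofructokinase activator fructose 2,6-bisphosphate, had the largest positive value that missed, 0.72 (SE 0.33, limma adjusted p = 0.206). SLC2A1, the basal glucose carrier GLUT1, and PFKFB3, the relative of PFKFB4 that mainly makes the activator, were both at 0.39.

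Enzymes of one step did not always share a sign. Among phosphofructokinases, PFKL was positive, PFKM, the muscle type, was at -0.33 and PFKP, the platelet type, at -0.066. The hexokinases HK1 and HK2, which trap glucose as its phosphate, were at -0.0097 and -0.26. From GPI and ALDOC down to PKM, the 8 enzymes other than ALDOA (GPI, ALDOC, TPI1, GAPDH, PGK1, PGAM1, ENO1 and PKM) had values of 0.16 to 0.39 with adjusted p of 0.117 or more. With arrays scaled to a common median instead of quantile normalized, TPI1, GAPDH, PGAM1, DDIT4 and EGLN3 turned slightly negative, the median of all genes was -0.14, and the calls split into 247 higher and 1210 lower genes in place of 494 and 445.

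Among hypoxia genes, 11 of 13 measured members were positive, against 49% of tested genes. HIF1A passed the test, and EPAS1 did on values mostly below detection. EGLN1, the prolyl hydroxylase PHD2 that destabilizes HIF alpha subunits and is itself induced by HIF, was at 6.32, 6.15, 6.01 and 6.03 on shFoxA1 arrays (numbered 1 and 2, R1881, hormone-deprived), against 5.20, 5.09, 5.91 and 5.85 on shCtrl arrays. All shFoxA1 arrays were above all shCtrl arrays, but the 2 numbered shCtrl arrays were below detection, and the fit gave 0.62 (SE 0.20, limma adjusted p = 0.0913). EGLN3, the family member PHD3, was at 0.019 with groups that overlapped.

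The targets of HIF with values near the threshold were VEGFA, the main angiogenic growth factor, at 0.52 (SE 0.15, limma adjusted p = 0.0663), and KDM3A, a histone demethylase, at 0.53 (SE 0.16, limma adjusted p = 0.0775). P4HA1 and P4HA2, the prolyl hydroxylases of collagen, were at 0.67 and 0.57, and the mitophagy receptors BNIP3 and BNIP3L at 0.38 and 0.50. DDIT4, an inhibitor of mTORC1, was at 0.13. ANKRD37 and ADM, the vasodilator adrenomedullin, were negative, at -0.29 and -0.39. Over all 33 measured members, 3 had every shFoxA1 array above every shCtrl array (EGLN1, HIF1A, EPAS1; 5.28% of tested genes did), 1 had every one below (LDHB; 5.89% did) and 29 overlapped. For EPAS1 this order rests on the shFoxA1 deprived array, at 4.99, against 4.87 on the shCtrl array numbered 2, both below detection.

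**Figure D2:**
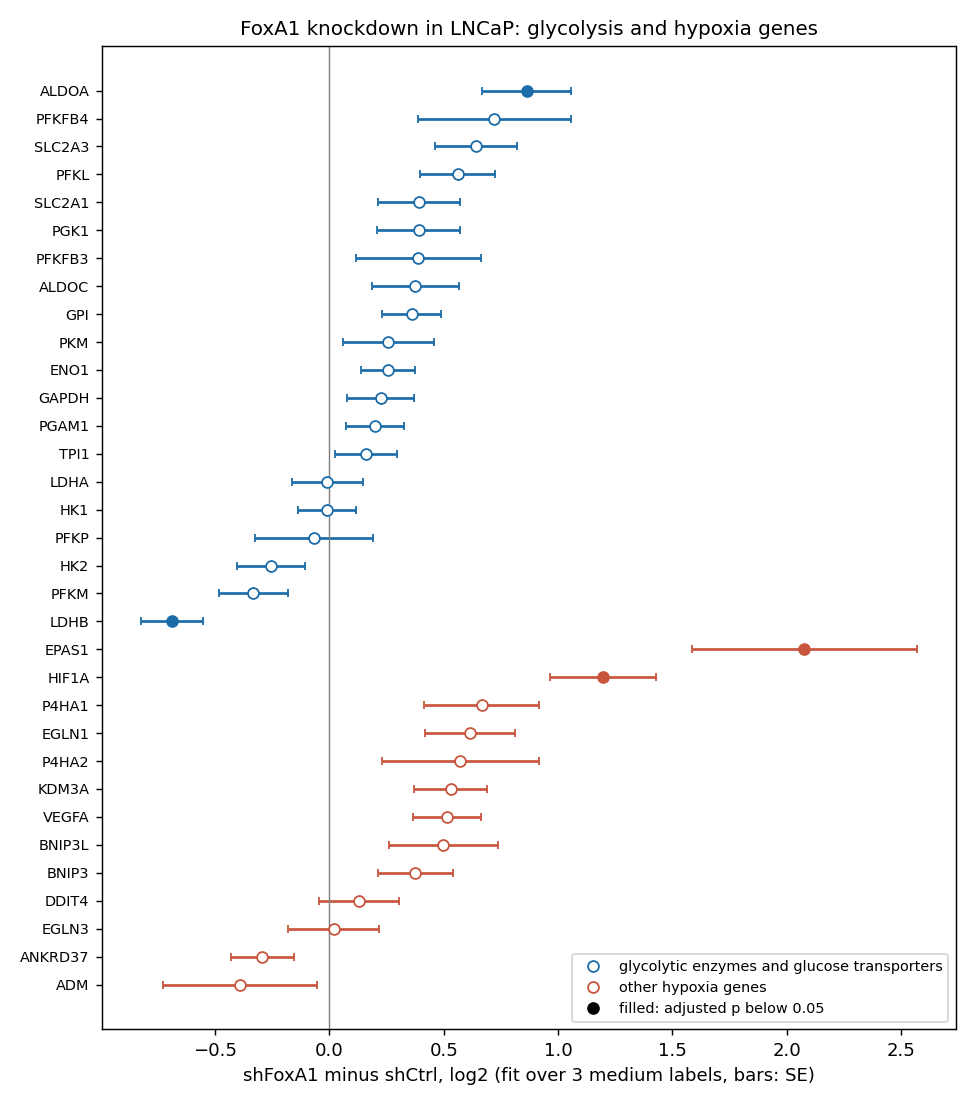
Fitted difference shFoxA1 minus shCtrl in LNCaP (horizontal axis, log2, bars are SE) for the 20 glycolytic genes above and the 13 other hypoxia genes below, filled where the adjusted p was below 0.05. The filled points are ALDOA at 0.86, LDHB at -0.69, EPAS1 at 2.08 and HIF1A at 1.20; most of the open points lie between 0 and 0.72, and the EPAS1 point includes values below detection.

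The members stood further above their control in some LNCaP pairs than in others. In the pair numbered 1, 31 of 33 measured members were higher on the shFoxA1 array, with medians of 0.65 for glycolytic and 0.92 for hypoxia genes. In the pair numbered 2, 25 were higher and the medians were 0.28 and 0.52. In R1881, 20 were higher, with medians of 0.12 and 0.11, and in hormone-deprived medium 12 were higher, with medians of -0.096 and 0.12. Between 47.7% and 49.8% of all tested genes were higher in these pairs.

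Measured differences of 2-fold or more followed the same order. The pair numbered 1 had 14 such members higher and 1 lower, against 7.32% and 6.03% of tested genes. The 14 were the glycolytic genes PFKL, PFKP, ALDOA, ALDOC, PKM, SLC2A1, PFKFB3 and PFKFB4 and the hypoxia genes BNIP3L, EGLN1, P4HA1, P4HA2, HIF1A and EPAS1, and the lower one was LDHB. EPAS1, here and in the pairs below, entered through the knockdown arrays alone, so its count is no support for a difference. EGLN1 was undetected on both numbered shCtrl arrays, and against the detection limit it was at least 1.99-fold higher in the pair numbered 1 and at least 1.81-fold in the pair numbered 2, which leaves 13 and 3 higher members at 2-fold (6.66% and 2.62% of tested genes by that count). The pair numbered 2 had 4 higher (PFKFB4, EGLN1, HIF1A and EPAS1; 3.14% of tested genes) and 0 lower (2.16%). R1881 had 3 higher (ALDOA, SLC2A3 and EPAS1; 1.8%) and 0 lower (1.82%), and hormone-deprived medium had 0 higher (1.08%) and 1 lower (ADM, at -1.77; 0.631%).

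The shFoxA1 array numbered 1 stood apart for these genes. It held the highest level of 26 of the 33 measured members, against 19.5% of all tested genes. Without that array the medians were 0.14 for glycolytic and 0.24 for hypoxia genes. PFKFB4 was among the members that rested on the numbered arrays: 10.58 and 9.56 there on shFoxA1 arrays, against 8.69 and 8.49 on shCtrl arrays, while in R1881 it had 8.34 against 8.36 and in hormone-deprived medium 7.51 against 7.57.

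The summed normalized intensity of 7 leukocyte and endothelial markers was higher on the knockdown array in each of the 6 pairs. It was 576 against 286 and 434 against 325 in the numbered pairs, 764 against 664 in R1881 and 814 against 807 in hormone-deprived medium. With siRNA it was 447 against 330, and in 22RV1 968 against 678. Of the 7, 1 to 3 were detected on each array of these pairs, and PTPRC, CD3E and CDH5 on none. Only CD68 was detected on every one of these arrays, so the sums include markers below detection. In the numbered pairs VWF was detected on both shCtrl arrays and on neither shFoxA1 array. PECAM1 in R1881 and CD14 in hormone-deprived medium were detected on the shFoxA1 array alone. The part of these markers in the results was not tested. The sum of the 6 fibroblast markers was higher on the knockdown array in 3 of the 6 pairs.

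When the numbered arrays were compared alone, within a model of 6 group means, HIF1A and EGLN1 passed the test, both higher in knockdown. HIF1A differed by 1.67 (SE 0.27, limma adjusted p = 0.0469). EGLN1 differed by 1.09 (SE 0.17, limma adjusted p = 0.0469), and since neither numbered shCtrl array detected it, its mean was at least 1.90-fold higher. The 2 called higher members compare with 1.65% of tested genes, and the 0 called lower with 0.975%; 21 of 33 members had an unadjusted p below 0.05, against 25.1% of tested genes. Neither HIF1A nor EGLN1 passed without the shCtrl array numbered 1 or 2, when 0 of all genes passed (limma; 1701 and 2084 at an unadjusted p below 0.05), and HIF1A and EGLN1 both missed without the shFoxA1 array numbered 1, when EPAS1 was among 102 genes that passed. Each fit without 1 numbered array, the one without the shFoxA1 array numbered 2 included, left 1 array in its group. The spread then came from the other numbered group alone, so these fits decide little about the calls.

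The contrast of R1881 against hormone-deprived medium rested on a lone array of each medium per shRNA. By their descriptions, the R1881 arrays were numbered in a series with the numbered arrays, and the hormone-deprived arrays were numbered separately. Medium and array set therefore cannot be told apart here. Whether the androgen or the array set gave the differences was not tested. Levels of the hexokinase HK2, the glucose carriers SLC2A1 and SLC2A3, LDHA and ANKRD37 were higher in R1881 in both shRNA lines, and those of ADM, EGLN3 and BNIP3L were lower in both. No member passed the test of this contrast over both shRNAs, at 0 higher (0.0757% of tested genes) and 0 lower (0.177%); 7 members had an unadjusted limma p below 0.05, against 11.6% of tested genes. Of the measured members, 28 of 33 had a positive value, against 49.9% of tested genes, with medians of 0.32 for glycolytic and 0.18 for hypoxia genes.

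SLC2A3 had 6.57 in R1881 and 4.44 in hormone-deprived medium in shFoxA1 cells, and 5.51 and 4.46 in shCtrl cells. It was detected on both R1881 arrays and on neither deprived array, so it was at least 1.91-fold higher in R1881 (fit: 1.59, SE 0.26, limma adjusted p = 0.0552). SLC2A3 passed the test in the deposited matrix, with median scaling, with cyclic loess or without background correction (limma adjusted p = 0.0129 to 0.0406), and without the shFoxA1 array numbered 1 (0.0397). It missed in the other 6 of 11 alternatives (0.0541 to 0.122), with a difference of 0.86 at a background offset of 50.

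HK2 had 7.41 in R1881 and 6.33 deprived in shFoxA1 cells, and 7.89 and 6.49 in shCtrl cells. Both lines were higher in R1881, by 1.24 in the fit (SE 0.21, limma adjusted p = 0.0593). HK2 passed in 2 of 12 alternatives, among genes detected on all 8 arrays (limma adjusted p = 0.0445) and without the shFoxA1 array numbered 1 (0.0251), and missed in the other 10 (0.0589 to 0.204). ANKRD37, an ankyrin-repeat gene known as a HIF-1 target, had 7.14 and 6.13 in shFoxA1 cells, and 7.56 and 6.45 in shCtrl cells, a difference of 1.06 (SE 0.20, limma adjusted p = 0.0797). It passed without the shFoxA1 array numbered 1 (0.0286) and missed in the other 11 alternatives (0.0599 to 0.223). For HK2, SLC2A3 and ANKRD37, leaving out a numbered array left the difference unchanged. It altered only the spread that the test used.

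LDHA had 13.05 in R1881 and 12.15 deprived in shFoxA1 cells, and 13.23 and 12.56 in shCtrl cells, a difference of 0.79 (SE 0.22, limma adjusted p = 0.203). SLC2A1 had 9.07 and 8.05 in shFoxA1 cells, and 8.85 and 8.15 in shCtrl cells. Its difference was 0.86 (SE 0.26, limma adjusted p = 0.218). Both genes were higher in R1881 in each line, but not beyond the threshold. EGLN3 ran the other way, at 5.56 and 6.35 in shFoxA1 cells, and 5.60 and 6.45 in shCtrl cells (-0.82, SE 0.28, limma adjusted p = 0.307).

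By measured values, 5 members were at least 2-fold higher in R1881 in shFoxA1 cells (HK2, SLC2A1, SLC2A3, ANKRD37 and EPAS1; 1.17% of tested genes) and 0 lower (1.65%). In shCtrl cells 3 were higher (HK2, SLC2A3 and ANKRD37; 1.41%) and 1 lower (ADM; 1.29%), where SLC2A3, undetected on the deprived array, is bounded at only 1.36-fold. On the shFoxA1 deprived array SLC2A3 was undetected too, and against the detection limit it was at least 2.68-fold higher in R1881. EPAS1 entered through the knockdown arrays alone, so its place among the 5 is a description and no support for a difference. ADM had 5.52 in R1881 and 5.89 deprived in shFoxA1 cells, and 5.96 and 7.67 in shCtrl cells, so that the shCtrl deprived array alone was high. The test of the difference between the shRNAs called 0 of 11892 genes (0%), with 192 at an unadjusted limma p below 0.05. The 2 members among these were ADM, with a difference of 1.34 (SE 0.53) between the shRNAs, and SLC2A3, with 1.07 (SE 0.37), both with a limma adjusted p of 1.00. Within shFoxA1 and within shCtrl the same fit called 0 genes each (0%), with 764 and 754 at an unadjusted p below 0.05.

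**Figure D3:**
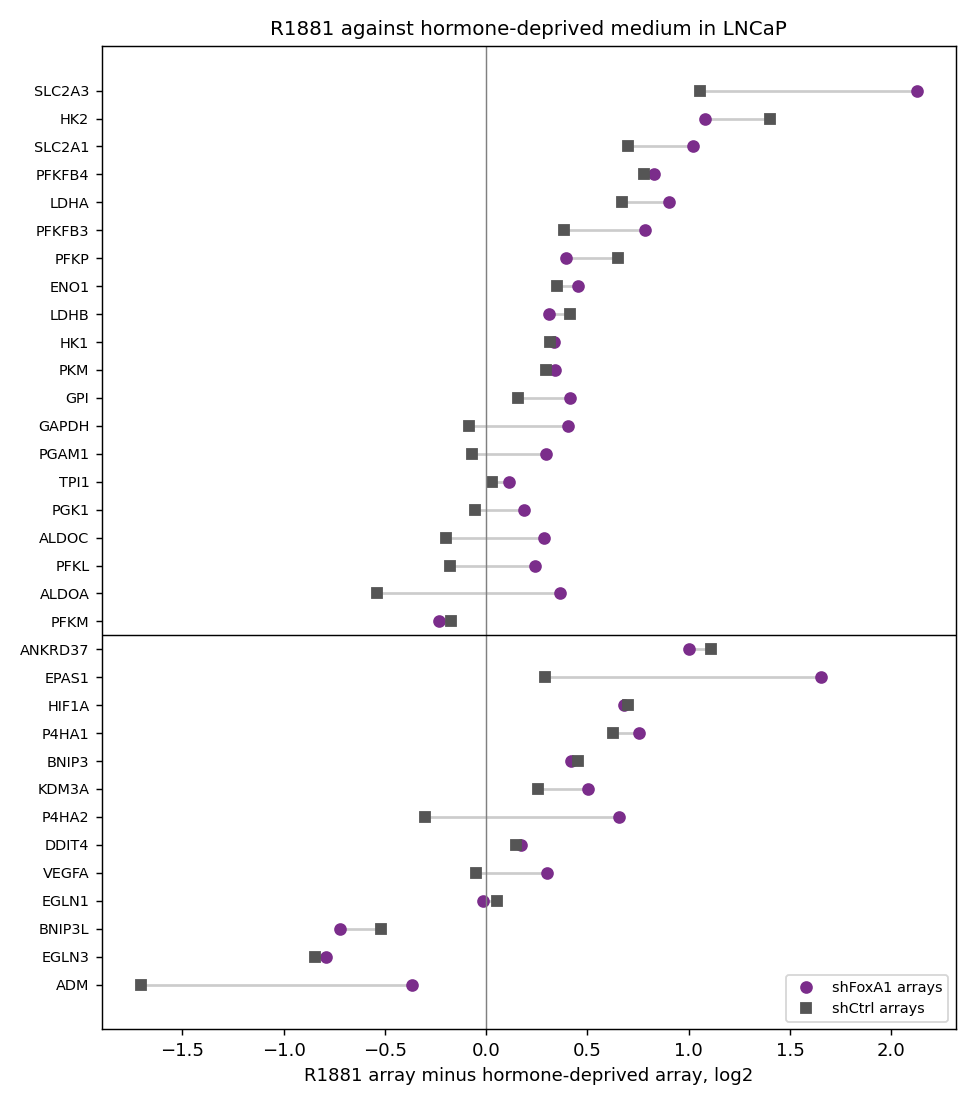
R1881 array minus hormone-deprived array (horizontal axis, log2) for each measured member, in shFoxA1 cells (circles) and shCtrl cells (squares), 1 array each, glycolytic genes above and other hypoxia genes below the line. HK2, SLC2A3 (not detected on the deprived arrays) and ANKRD37 lie at 1.00 or above in both, and ADM lies at -0.37 in shFoxA1 and at -1.70 in shCtrl cells.

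The siRNA pair, made with another reagent and at another core facility than the shRNA arrays, gave 1 array a group and no test. On the siFoxA1 array, 30 of 33 measured members were higher, with medians of 0.43 for glycolytic and 0.57 for hypoxia genes, against -0.021 for all genes, of which 46.9% were higher. EPAS1, PFKFB4, SLC2A3 and HIF1A were at least 2-fold higher, 4 members against 1.95% of 15324 genes, and 0 were at least 2-fold lower (1.06%). EPAS1 was undetected on the siCtrl and 22RV1 shCtrl arrays, so it met the filter through knockdown arrays alone. Its place among the 4 is a description and no support for a difference.

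EPAS1 was at 7.16 on the siFoxA1 array and at 4.34, below detection, on the siCtrl array, at least 6.42-fold higher. HIF1A was at 7.76 against 6.71 and PFKFB4 at 10.13 against 8.81. SLC2A3 was at 7.35 against 6.13. Of the other members that passed the shRNA test, ALDOA was higher, 13.52 against 12.82, and LDHB lower, 9.87 against 10.53. The 3 members lower with siRNA were LDHB, PFKM and EGLN3. EGLN1, PFKFB3 and P4HA1 were higher by 0.92 to 0.96, just short of 2-fold.

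In 22RV1, a line grown from a relapsed xenograft, the members stood close to their control by their medians. The shFoxA1 array was higher for 18 of 33 measured members, against 48.7% of all genes. The medians were 0.039 for glycolytic and 0.055 for hypoxia genes. DDIT4 alone was at least 2-fold higher, at 9.58 on the shFoxA1 array and 8.47 on the shCtrl array (1 member; 1.57% of genes), and 0 were at least 2-fold lower (1.25%). HIF1A was at 7.10 against 6.75. EPAS1 was at 4.90 against 4.21, detected on the shFoxA1 array alone and at least 1.35-fold higher. ALDOA was at 11.64 against 11.50, and LDHB at 10.92 against 11.16. HK2 differed by -0.78, PGAM1 by -0.82 and TPI1 by -0.58, short of 2-fold. With median scaling, the median of all genes fell to -0.35, and HK2, PGAM1 and TPI1 were at least 2-fold lower while DDIT4 no longer passed.

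Across the 5 LNCaP pairs, 11 of 33 measured members were higher in every pair and 2, LDHB and PFKM, were lower in every pair. In 22RV1, 5 of these 13 had the opposite sign: ENO1, VEGFA, BNIP3, P4HA1 and KDM3A. The largest of these was KDM3A, at 5.12 on the 22RV1 shFoxA1 array and 5.59 on its control. The share of all tested genes with these patterns was not counted, so they are not read as a trait of the members. The difference between the lines was not tested.

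The control cells of the lines also differed in these genes. On the 22RV1 shCtrl array, 17 of 33 measured members were at least 2-fold lower by measured values than on the LNCaP siCtrl array of the same table (12.6% of genes), 16 of them also against the detection limit (all but EGLN3, bounded at 1.66-fold), and 1 was at least 2-fold higher (15.8%), with a median of -1.03. PFKP was at 5.92 in 22RV1 and 10.11 in LNCaP, ANKRD37 at 4.92 and 8.82, and DDIT4 at 8.47 and 11.19. The higher member was ADM, at 7.47 in 22RV1 and 5.57 in LNCaP. HIF1A was nearly level, at 6.75 and 6.71. The construct differed between these arrays, and line and construct cannot be told apart.

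**Figure D4:**
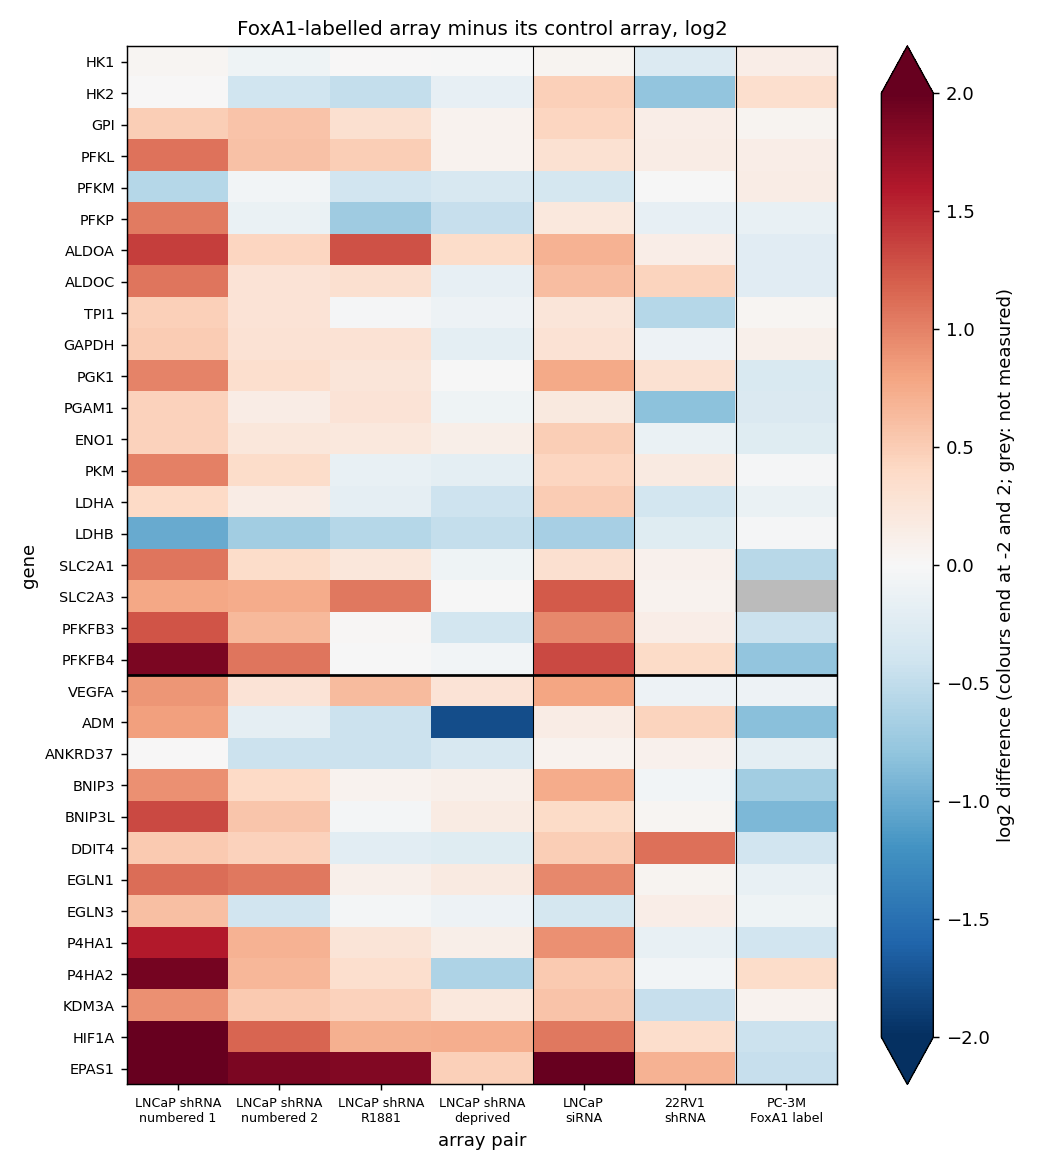
FoxA1-labelled array minus its control array (colour, log2, ending at -2 and 2) for each measured member (rows, glycolytic genes above the line) in the 4 LNCaP shRNA pairs, the siRNA pair, 22RV1 and PC-3M (columns). The pair numbered 1 and the siRNA pair are mostly red, with 31 and 30 of 33 members higher; LDHB is blue in each knockdown pair, and SLC2A3 was not measured in PC-3M (grey).

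In PC-3M, a metastatic line, the array labelled FoxA1, which had the lower FOXA1 level, was lower than its control for 23 of 32 measured members. The medians were -0.13 for glycolytic and -0.38 for hypoxia genes, against 0.0086 for all genes, and 51% of all genes were higher. No member reached 2-fold, with 0 higher (1.05% of 11370 genes) and 0 lower (1.43%). The furthest apart were BNIP3L, which differed by -0.89, ADM, at 9.09 on the array labelled FoxA1 and 9.93 on the control, and PFKFB4, at 7.65 and 8.44. HIF1A was at 9.32 and 9.75, and EPAS1, detected on both arrays, at 7.40 and 7.86.

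Neighbouring pathways, in lists written for comparison, gave 7 called genes in the LNCaP knockdown fit. Among 21 measured hypoxia-induced genes outside the members, 2 passed, both higher: NDRG1, a growth suppressor induced by hypoxia and by androgen, at 1.64 (SE 0.21, limma adjusted p = 0.00840), and HMOX1, which breaks down haem, at 1.32 (SE 0.22, limma adjusted p = 0.0185). NDRG1 was also the one gene of these lists called between media, at 2.74 higher in R1881 (SE 0.29, limma adjusted p = 0.0156). Of 10 measured genes of gluconeogenesis and glycogen, GBE1, the branching enzyme, was higher at 1.39 and PYGB, brain glycogen phosphorylase, at 0.95, while PCK2, mitochondrial PEP carboxykinase, was lower at -0.68 (limma adjusted p = 0.0171 to 0.0422).

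In the pentose phosphate list 1 of 8 measured genes passed, PRPS1, which makes the ribose donor of nucleotides, lower at -0.94 (SE 0.12, limma adjusted p = 0.00845). Of 14 measured further glycolytic isoforms and carriers 1 passed, the glucose carrier SLC2A12, lower at -1.13 (SE 0.20, limma adjusted p = 0.0203). Of 12 HIF regulators 0 passed, with 1 at an unadjusted limma p below 0.05, and of 11 genes for pyruvate entry to mitochondria 0 passed, with 4; the share of all tested genes was 27.3%. These lists were read against the same 4.15% and 3.74% of tested genes called higher and lower.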

How the data were processed

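Total RNA was measured on 14 Illumina bead arrays. Probe values came from GenomeStudio, per the submitters' processing notes. The deposited shRNA (LNCaP) table and the PC-3M one held background-subtracted intensity with a detection p-value per probe, per the file headers; the deposited siRNA and 22RV1 table held raw intensity, and its whole-number columns headed as p-values were not used. The deposited matrix, intensity normalized by the authors, was an alternative only.

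Each table was processed alone in R 4.3.3 with limma 3.58.1: normal-exponential background correction (offset 16) and quantile normalization on the log2 scale. A probe was detected at a detection p below 0.05 or, with siRNA and 22RV1, above the intensity mode plus 1.64 SD. Genes were named from the platform annotation (30113 probes with 1 symbol, 8 with several) and taken by the brightest probe detected on at least 2 of 8 shRNA arrays, or on 1 array elsewhere. The knockdown fit had 4 residual degrees of freedom (prior 4.41). The fit of 6 group means had 2 (prior 3.77), and the lone R1881 and hormone-deprived arrays were assumed to vary as the numbered ones do. Tests were two-sided (lmFit, eBayes, Benjamini-Hochberg adjusted p below 0.05); single arrays were compared at 2-fold with detection on the brighter array. A lower bound is against the detection limit. Numbered arrays deviated from their group means with a correlation of -0.173 between same numbers, which did not pair them. The members and lists were chosen with earlier results of these data known. Members that passed a test or 2-fold were described in full, and called genes were named from 6 further lists. The scripts were tested on simulated data. Alternatives varied background, normalization, filter, probe choice, terms and arrays. Promoters are from RefSeq (GRCh38.p14).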

Additional observations from a re-analysis of the deposited data

Results flagged for a closer look

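For 5 members the 22RV1 pair ran opposite to every LNCaP pair, which were all higher with FoxA1 knockdown. The 22RV1 differences, shFoxA1 minus shCtrl, were -0.47 for KDM3A, -0.15 for P4HA1, -0.14 for ENO1, -0.11 for VEGFA and -0.057 for BNIP3. In LNCaP the same genes ran from 0.22 to 0.92, 0.12 to 1.58, 0.11 to 0.49, 0.27 to 0.89 and 0.072 to 0.92 over 5 pairs. Each 22RV1 value is from 1 array a group, and the difference between the lines was not tested. The share of all tested genes that ran opposite in this way was not counted.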

How the results depend on the processing

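HIF1A, ALDOA and LDHB kept their direction under every alternative run for the LNCaP knockdown fit, and passed its test in 9 of 19, 5 of 19 and 10 of 19 of them. EPAS1 kept its direction and passed that test in 6 of 18. It entered through the knockdown arrays alone, so neither is support for a difference. That fit called 939 genes, 3 members higher and 1 lower. It called 25 genes with no background correction, 24 in the deposited matrix, 265 with no filter on detection and 123 with no medium term, each with 0 members higher and 0 lower. Median scaling called 1457 genes. With the R1881 arrays joined to the numbered ones it called 346, with 0 members higher, and without the hormone-deprived pair 5 members were higher. Leaving out replicates gave 2 to 737 genes, 0 to 2 members higher and 0 to 1 lower. Some of these fits used fewer arrays or tested more genes than the main one. The cause of the differing counts was not tested.

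The same-numbered arrays shared only a number. With a replicate block for each pair in place of the medium term, the fit called 527 genes and 1 member higher (HIF1A; LDHB stayed lower). In the numbered arrays the replicate block cut 312 called genes to 55 and 2 members higher to 0, and a crossed pairing of the numbers, chosen after seeing the data, gave 1097 genes and 7 members higher. There, an offset of 50 left 0 members higher, no background correction 10 genes and 0 members, the deposited matrix 17 genes and 0 members, and no filter 0 genes and 0 members (limma; 3609 genes at an unadjusted p below 0.05). Cyclic loess gave 591 genes, median scaling 622 with 4 members higher, and genes detected on all arrays 481 with 1 member higher. Leaving out replicates gave 0 to 950 genes, 0 to 8 members higher and 0 to 1 lower.

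For R1881 minus hormone-deprived, 30 genes and 0 members passed. It was 9 genes and 1 member higher with no background correction, 8 and 1 in the deposited matrix, 50 and 1 with cyclic loess, 49 and 1 with median scaling (28 higher and 21 lower, against 9 and 21; the median of all genes was 0.18), 48 and 1 among genes detected on all arrays, and 3 genes with no filter. Leaving out replicates gave 7 to 94 genes and 0 to 3 members higher. The difference between the shRNAs called 0 genes under every alternative run.

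Members near 0 changed sign. In the knockdown fit, EGLN3 was -0.62 with no background correction, -0.069 with cyclic loess, -0.16 with median scaling and -0.74 in the deposited matrix. HK1 was 0.0023 and LDHA 0.057 with cyclic loess, and LDHA was 0.0012 in the deposited matrix. Median scaling put TPI1 at -0.073, GAPDH at -0.00090, PGAM1 at -0.044 and DDIT4 at -0.10. Without the hormone-deprived pair, PFKP was 0.063, LDHA 0.12 and ADM 0.072. Leaving out replicates, EGLN3 ran from -0.19 to 0.19, HK1 from -0.078 to 0.062, PFKP from -0.43 to 0.15 and LDHA from -0.15 to 0.046. For R1881, PFKL was -0.015 and ALDOA 0.0047 with cyclic loess, PFKM 0.12 and ALDOA 0.30 with median scaling, and ALDOA 0.086 and P4HA2 -0.049 with the median over probes.

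In the siRNA pair 461 genes and 4 members higher became 223 and 2 with an offset of 50, 143 and 2 with no background correction, 12 members higher, 1 lower and 1782 genes at 1.5-fold, 7 members higher with cyclic loess, and 2857 genes in the deposited matrix. In 22RV1, 432 genes and 1 member higher became 207 genes with an offset of 50, 142 genes and 0 members with no background correction, 0 members higher with cyclic loess, and 1392 genes with 0 members higher and 3 lower with median scaling. It was 2452 genes and 2 members higher in the deposited matrix, and 1974 genes, 2 members higher and 2 lower at 1.5-fold. In PC-3M, 282 genes became 146 with an offset of 50, 1221 with no background correction, 1170 in the deposited matrix, and 1241 with 4 members lower at 1.5-fold. Single arrays limit all 3 pairs, and EPAS1, SLC2A3, EGLN1 and EGLN3 lay near background on part of the arrays.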
